A study of Mus musculus with 18 samples.

Results

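The genes described here encode the nuclear subunits of respiratory complexes II to V, 4 of the 5 enzyme complexes of mitochondrial oxidative phosphorylation. They were chosen by gene symbol, with earlier results of these data known: Sdha to Sdhd for complex II, Cyc1 and 8 Uqcr genes for complex III, the Cox4 to Cox8 families for complex IV and the Atp5 family for complex V. The symbols matched 48 of 47643 genes, with 193 transcript entries: 4 genes of complex II, 9 of complex III, 18 of complex IV and 17 of complex V. 2 of those 17 are not ATP synthase subunits in the strict sense: Atp5s is known as coupling factor B, and Atp5sl, now also called Dmac2, is known as an assembly factor of complex I.

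The RNA came from 1 mouse line, the embryonic stem (ES) cells 5G6GR, which are known to carry an inducible Gata6 fusion, and was measured in 18 libraries, 3 for each of 6 groups. All cells were grown without feeders on gelatin, in serum with leukemia inhibitory factor, puromycin and blasticidin. For 15 libraries, 10 pg of purified total RNA was copied by RT-RamDA, a reverse transcription that displaces and remakes cDNA strands along the template, and amplified by 17 PCR cycles after library construction. The 5 primer sets were random hexamers (N6), not-so-random primers designed against ribosomal RNA (rRNA) priming (NSR), oligo(dT), which anneals to poly(A) tails (dT), and the mixtures N6dT and NSRdT. For the bulk libraries rRNA was removed from 200 ng, and random primers, another kit and 7 PCR cycles were used. The comparisons address which transcripts each primer set copied from so little RNA, beside a larger input.

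Complex II oxidises succinate and passes electrons to ubiquinone, complex III hands them to cytochrome c, complex IV reduces oxygen, and complex V makes ATP from the proton gradient. Complex II is encoded in the nucleus alone, while complexes III, IV and V also hold subunits made from mitochondrial DNA. The nuclear subunit mRNAs are polyadenylated, many are short, and several exist as tissue-specific forms of 1 subunit or have processed copies elsewhere in the genome.

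Some of these genes resemble each other closely in sequence, which bears on how far their counts can be told apart. Subunit c, which forms the rotor ring of complex V, is made from 3 genes: Atp5g1 on chromosome 11, Atp5g2 on chromosome 15 and Atp5g3 on chromosome 2 (mm10). Their last 75 codons, shown here 5′ to 3′ from the mm10 annotation with capitals at the 57 positions that vary among them, encode the same amino acids.
Atp5g1: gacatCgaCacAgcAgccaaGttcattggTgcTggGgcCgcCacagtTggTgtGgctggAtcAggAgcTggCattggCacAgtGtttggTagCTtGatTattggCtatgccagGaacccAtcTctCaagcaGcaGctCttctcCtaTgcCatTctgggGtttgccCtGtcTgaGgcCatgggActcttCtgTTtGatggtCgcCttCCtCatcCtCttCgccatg
Atp5g2: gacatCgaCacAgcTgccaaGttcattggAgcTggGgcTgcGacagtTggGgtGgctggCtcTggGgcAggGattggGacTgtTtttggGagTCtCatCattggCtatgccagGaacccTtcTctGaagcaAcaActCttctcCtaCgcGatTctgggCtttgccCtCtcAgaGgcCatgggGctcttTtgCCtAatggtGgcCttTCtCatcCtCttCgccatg
Atp5g3: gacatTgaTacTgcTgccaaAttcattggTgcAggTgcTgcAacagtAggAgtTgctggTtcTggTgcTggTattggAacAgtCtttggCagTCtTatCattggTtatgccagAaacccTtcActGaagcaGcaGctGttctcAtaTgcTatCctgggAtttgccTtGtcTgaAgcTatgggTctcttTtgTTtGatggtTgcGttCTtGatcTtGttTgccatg
Over these 225 bases Atp5g1 differed from Atp5g2 at 34 positions and from Atp5g3 at 45, and Atp5g2 differed from Atp5g3 at 48. No run of 31 bases was shared by any pair, and the longest equal runs were 20, 11 and 8 bases. Cox7c, a small subunit of complex IV on the minus strand of chromosome 13 (mm10 86044816 to 86046904), is the opposite case. Its 192 coding bases recur whole in Gm12338 on chromosome 11 (75599763 to 75599954) and with substitutions G30C and G107A, counted from the start codon, in Gm10012 on chromosome 17 (25901856 to 25902227). Capitals in Gm10012 mark those 2 bases.
Cox7c: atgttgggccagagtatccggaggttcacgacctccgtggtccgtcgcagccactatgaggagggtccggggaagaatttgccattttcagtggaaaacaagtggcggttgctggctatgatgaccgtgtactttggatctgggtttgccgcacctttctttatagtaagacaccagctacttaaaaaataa
Gm10012: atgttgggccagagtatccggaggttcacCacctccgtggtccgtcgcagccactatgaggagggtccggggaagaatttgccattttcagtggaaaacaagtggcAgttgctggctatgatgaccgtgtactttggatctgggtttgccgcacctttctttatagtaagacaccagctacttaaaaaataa
Both copies, and Gm10175, which held 87.7% of the 31-base words of Atp5g2, were picked out after their values were seen.

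Library totals without spike-ins ran from 5333546 to 10234690 estimated counts. All 7 ES cell markers were found, while 6 markers of primitive endoderm summed to 538 CPM (counts scaled to a total of 1000000) in bulk replicate 2 against 27.5 and 22.3 in bulk replicates 1 and 3, so that library stands apart, and more cells of that type cannot be told apart from more RNA per cell. rRNA and mitochondrial genes took 12.8% of counts in bulk, 26.8% with dT, 47.9% with NSRdT, 56.4% with NSR, 62.7% with N6dT and 66.3% with N6. Where present, Lars2, Gm26917, Gm42418, Mir6236, AA474408 and Gm15662 were counted with them, here and below. Values per library are CPM scaled by TMM factors (trimmed mean of M values) unless named otherwise, and libraries are given in the order of replicates 1 to 3. Log2 fold changes come from edgeR's quasi-likelihood test with p-values adjusted by Benjamini-Hochberg over every gene tested, and a gene is called where that p is under 0.05. Standard errors (SE) of edgeR values were derived as the absolute log2 fold change over the square root of the F statistic of that test. The labels name no separate cultures, so p-values measure only the spread between these libraries, which may be technical.

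43 of the 48 genes had enough counts to be tested. The other 5 are forms known from other tissues: Cox6a2 and Cox8b of heart and muscle, Cox7b2 and Cox8c of testis, and Cox4i2, an oxygen-regulated form known from lung. Cox6a2 had 0 counts in 17 of 18 libraries, Cox8c in 17, Cox7b2 in 15, Cox8b in 14 and Cox4i2 in 8. Cox4i2 reached 23 estimated counts and Cox8c 10, both in N6dT replicate 2. Their widely expressed counterparts Cox6a1, Cox8a, Cox7b and Cox4i1 were found in every library. Of 4 heart and muscle markers and 4 testis markers, 1 testis marker was at 0 in all libraries, and the sums were 4.33 and 9.34 CPM in bulk, against 4024 for the ES cell markers.

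Levels of different genes can be compared only per length, as TPM (transcript counts per length, scaled to a total of 1000000). In bulk the highest was Atp5b, the catalytic β subunit of complex V, at 1118 ± 32.8 TPM, followed by Cox7c at 515 ± 42.3, Cox4i1, the largest nuclear subunit of complex IV, at 463 ± 3.06, Cox6c at 379 ± 14.3 and Atp5a1, the α subunit of complex V, at 325 ± 9.67 TPM (mean ± SD, n = 3). Cox6c and Atp5a1 lay farther apart than their spread, as did each pair of neighbours above them. The lowest tested genes in bulk TPM were Atp5s at 3.17 ± 0.329, Cox7a1, the heart and muscle form of subunit 7a, at 15.6 ± 2.03 and Atp5sl at 21.1 ± 0.797. With N6 the top gene was again Atp5b at 304 ± 23.3 TPM, but Cox7c was at 18 ± 11.7 TPM, and Atp5a1, Atp5c1 and Atp5f1 held the places below Atp5b with 95.2 ± 7.11, 81.6 ± 11.2 and 72.3 ± 7.37 TPM. Atp5c1 and Atp5f1 did not differ beyond their spread. Across the 43 tested genes, the rank correlation of TPM with the mean of the bulk libraries was 0.471 to 0.509 in the N6 libraries, 0.538 to 0.641 in those with NSR, 0.903 to 0.914 in those with dT and 0.847 to 0.909 in the mixed ones. These correlations describe genes of the same libraries and carry no test.

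**Figure D1:**
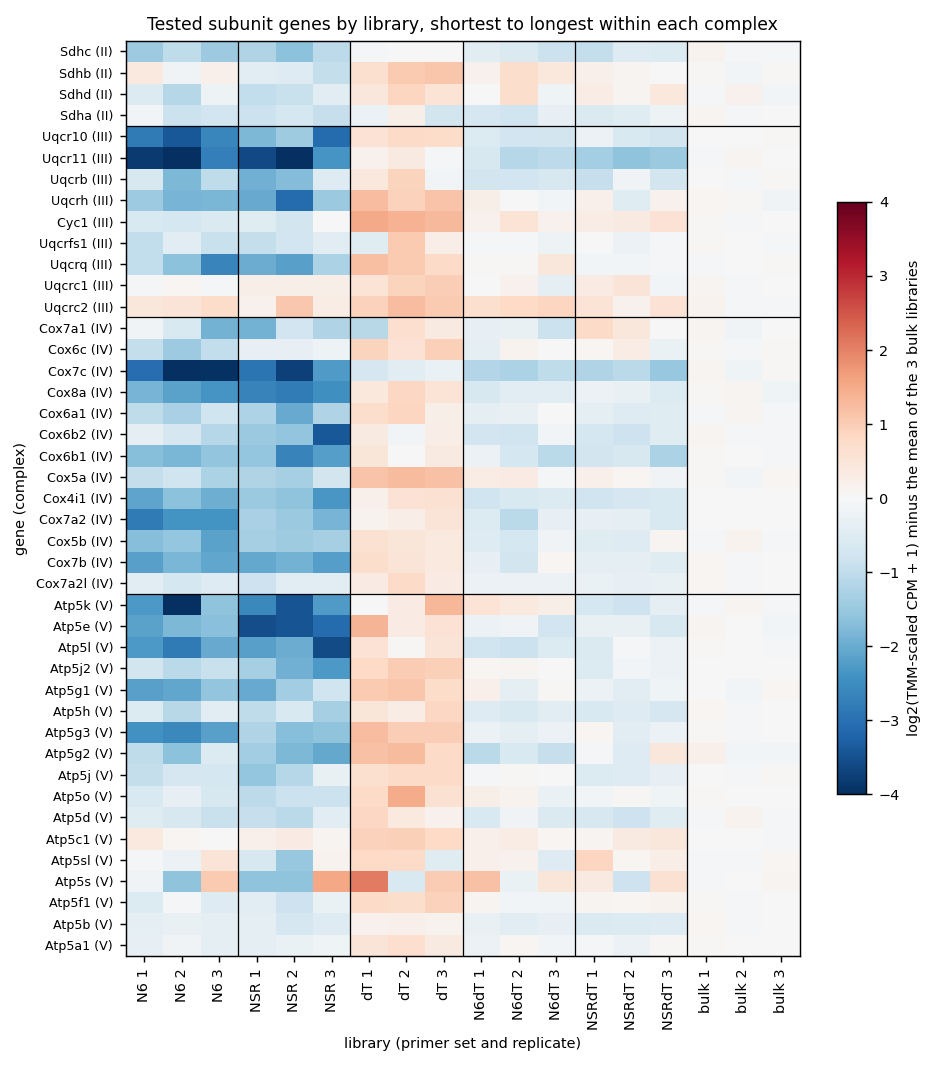
Level of each of the 43 tested genes in each of the 18 libraries, as log2(TMM-scaled CPM + 1) minus the mean of the 3 bulk libraries (colour, from -4 in blue to 4 in red; values beyond are drawn at the ends), with genes ordered by complex and, within a complex, from short to long. The N6 and NSR columns are bluest for the short genes at the top of complexes III, IV and V, such as Uqcr11, Cox7c and Atp5e, while the dT columns are red for most genes.

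Random primers alone were first compared with dT alone, in 1 fit of the 15 RT-RamDA libraries. The subunit mRNAs were lower with random primers: 37 of the 43 tested genes fell, 0 rose and 6 were not called by edgeR, while 7.54% of all 15682 tested genes were called lower and 9.53% higher. All 43 values were below 0, 40 at an unadjusted p under 0.05, and DESeq2 also called 0 higher. The median log2 fold change was -1.83 over these genes, 0.12 over all tested genes and -0.04 over tested protein-coding genes. By complex the median was -1.26 for the 4 genes of complex II, -1.94 for 9 of complex III, -2.24 for 13 of complex IV and -1.59 for 17 of complex V. For 37 genes all 6 N6 and NSR libraries were below all 3 dT libraries, as they were for 9.57% of all tested genes, and for 0 genes they were all above, against 10.3% of all tested genes. By library totals 820 of all tested genes were called higher and 4328 lower, in place of 1495 and 1183, and the medians were -0.80 over all tested genes and -2.75 over the subunit genes. These medians lay apart by -1.95 with either scaling. Scaling shifts all genes of a library alike, so that distance could hardly change and is no check.

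In complex II, Sdhc, a membrane anchor that binds heme, had 14.3, 19.6 and 14.1 CPM with N6, 17, 12.4 and 19 with NSR and 39.4, 40.9 and 40.7 with dT. The dT libraries were all higher, without overlap, and the log2 fold change was -1.32 (SE 0.27, adjusted p 0.0030). Sdhb, which carries the iron-sulfur clusters, and Sdhd, the other anchor, also fell, with log2 fold changes of -1.20 and -1.33. Sdha, the flavoprotein and the longest gene of the set at 2900 nt, had 104, 61.5 and 65.7 CPM with N6, 61.5, 69.5 and 59.3 with NSR and 95.4, 132 and 67.4 with dT. Those groups overlapped, and its value of -0.49 (SE 0.23, adjusted p 0.16) was not called.

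In complex III the smallest subunits stood lowest. Uqcr11, an accessory subunit whose transcript has 445 nt and whose gene lies on the minus strand of chromosome 10 (mm10 80402997 to 80406830), had 1.18, 0.404 and 3.62 CPM with N6, 1.53, 0.584 and 4.98 with NSR and 33.6, 38.6 and 29 with dT. Every random-primed library was below every dT library, and the value of -4.05 (SE 0.61, adjusted p 2.1e-04) was the lowest of the 43. Uqcr10 was at -3.37 (SE 0.39, adjusted p 1.0e-05), and Uqcrh, the hinge protein beside cytochrome c1, at -3.07 (SE 0.30, adjusted p 1.8e-06). Cyc1, cytochrome c1 itself, had 35.5, 32.9 and 36 CPM with N6, 39, 32.7 and 53.7 with NSR and 158, 145 and 137 with dT, which did not overlap, and its log2 fold change was -1.94 (SE 0.18, adjusted p 9.6e-07). The core proteins moved least: Uqcrc1 was called at -0.72 (SE 0.17, adjusted p 0.0094), and Uqcrc2, at 82.5, 86.8 and 99.6 CPM with N6, 67, 128 and 74.5 with NSR and 115, 143 and 125 with dT, overlapped between groups with a value of -0.50 (SE 0.20, adjusted p 0.092), which was not called, except without NSR replicate 2 (-0.67, adjusted p 0.013). Uqcrb and Uqcrq lay between, at -1.66 and -2.81, both called. Uqcrfs1, the Rieske iron-sulfur protein, was called at -1.18 (SE 0.30, adjusted p 0.013) with 27.2, 80.7 and 46.5 CPM with dT. It lost that call when dT replicate 2, its highest library, was left out (-0.73, adjusted p 0.13).

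In complex IV, 11 of 13 tested genes fell. Cox8a, the widely expressed form of subunit 8 (chromosome 19, minus strand, mm10 7215153 to 7217616), had 17.6, 14.3 and 12.3 CPM with N6, 9.48, 8.61 and 11.3 with NSR and 89.8, 119 and 98.1 with dT. Every dT library was above every random-primed one, and the log2 fold change was -3.08 (SE 0.21, adjusted p 1.7e-08). Cox7b and Cox4i1 had the next smallest p-values, with -2.63 (SE 0.20, adjusted p 6.1e-08) and -2.32 (SE 0.19, adjusted p 1.7e-07). For Cox4i1 the libraries read 32.9, 46.2 and 36.8 CPM with N6, 52, 46.7 and 28.2 with NSR and 169, 216 and 221 with dT. Among the other called genes, Cox5a, which faces the matrix, was at -2.24, Cox5b at -2.10, Cox6a1 at -1.88, Cox6b1, on the side of cytochrome c, at -2.25 and Cox6c at -1.52. The 2 genes not called were the low Cox6b2, known as a testis form, at -1.70 (SE 0.57, adjusted p 0.054), and Cox7a1 at -1.83 (SE 1.17, adjusted p 0.32). Within the 7a family, Cox7a2 fell at -2.46 and Cox7a2l, known for tying complexes III and IV together in supercomplexes, at -1.05. Cox7c was at -2.89 (SE 0.32, adjusted p 7.0e-06) alone and at -3.06 with its copies added, an alternative chosen after seeing the data.

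In complex V, 15 of 17 genes fell. Atp5e, the ε subunit of the central stalk (chromosome 2, minus strand, mm10 174461072 to 174464105), had 6.86, 8.88 and 9.84 CPM with N6, 1.99, 2.19 and 3.07 with NSR and 88.5, 42.2 and 51.1 with dT, and its log2 fold change was -3.73 (SE 0.32, adjusted p 3.3e-07). Atp5k, the e subunit of the membrane part and at 371 nt the shortest tested gene (chromosome 5, minus strand, mm10 108433244 to 108434448), had 3.13, 0 and 5.62 CPM with N6, 2.45, 0.876 and 3.22 with NSR and 19.6, 24.8 and 50.3 with dT. Its groups did not overlap and its value was -3.63 (SE 0.69, adjusted p 0.0016), though the dT libraries spread widely. The α and β subunits of the catalytic head changed less. Atp5b (chromosome 10, plus strand, mm10 128083273 to 128090391) had 544, 570.2 and 538 CPM with N6, 527, 440.3 and 491 with NSR and 779, 796 and 769 with dT, and Atp5a1 had 267, 304 and 257 CPM with N6, 265, 284 and 298 for NSR and 482, 538 and 436 for dT. Both were apart without overlap, with -0.59 (SE 0.08, adjusted p 6.3e-05) for Atp5b and -0.79 (SE 0.11, adjusted p 7.7e-05) for Atp5a1. The γ subunit Atp5c1 was called at -0.70, and the peripheral stalk genes Atp5f1, Atp5h, Atp5j and Atp5o, all called, at -1.22, -1.38, -1.59 and -1.75. Atp5d, the δ subunit, was called at -1.24, and Atp5j2 and Atp5l of the membrane part at -2.32 and -2.89. Atp5s, with -1.26 (SE 1.44, adjusted p 0.61), and Atp5sl, with -0.73 (SE 0.49, adjusted p 0.34), were the 2 not called. Without NSR replicate 3 Atp5s was called at -4.96 (adjusted p 0.045).

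The 3 genes of subunit c all fell, although their shared protein is the same. Atp5g3 had 16.1, 14.3 and 19.5 CPM with N6, 39, 27 and 29.1 with NSR and 215, 179 and 179.7 with dT, at -3.05 (SE 0.18, adjusted p 2.9e-09). Atp5g1 had 11.8, 12.7 and 18.1 CPM with N6, 13.1, 21 and 31.8 for NSR and 118, 122 and 94.9 for dT, at -2.65 (SE 0.26, adjusted p 1.4e-06). Atp5g2 had 19.4, 12.3 and 27.1 CPM with N6, 14.5, 10.9 and 8.93 for NSR and 90.9, 97.9 and 68.5 for dT, at -2.51 (SE 0.29, adjusted p 1.3e-05). For each of the 3 genes every dT library was above every random-primed one. In TPM, Atp5g3 made up 48.8% ± 0.671 of the 3 in bulk, 49.9% ± 3.44 with dT, 51.5% ± 7.93 with NSR and 33.2% ± 2.29 with N6 (mean ± SD, n = 3), and the N6 libraries were below all others. Atp5g2 took 41.1% ± 8.23 with N6 and 21.5% ± 1.79 in bulk. The subunit c shares leave out Gm10175, a close copy of Atp5g2. Gm10175 averaged 57.4 CPM in bulk and 7.74 with N6, against 40.3 and 19.6 for Atp5g2 alone. How counts were split between Atp5g2 and Gm10175 bears on the shares of all 3 genes, and its part in these shifts was not tested. In the 7a family Cox7a2l took 44.5% ± 0.819 in bulk, 47.2% ± 5.80 with dT, 62.5% ± 7.42 for NSR and 74.8% ± 3.45 for N6, and the N6 libraries did not overlap those of dT or bulk. Cox7a2l has 1078 nt and Cox7a2 754 nt. These shares need no scaling between libraries, and no test was run on them.

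Transcript length, which the choice of genes did not use, ordered these changes. Length here is that of the transcript of each gene with the largest mean estimate, and its median was 754 nt over the 43 genes against 2904 nt over 12529 tested protein-coding genes. Over the 43 genes the rank correlation of length with the log2 fold change of random primers against dT was 0.747, and over all tested protein-coding genes it was 0.433. With coding length in place of transcript length it was 0.795, with GC content -0.218 and with the average log2 CPM of each gene 0.391. All of these are descriptions across genes that share the same libraries. The 15 tested genes under 600 nt had a median of -2.89, the 12 genes from 600 to under 1000 nt -2.17, and the 16 of 1000 nt or more -1.11. All tested protein-coding genes in those ranges had medians of -1.04, -1.25 and 0.01, so the subunit genes had the lower median in each range, which was not tested. The range of 1000 nt or more does not compare like lengths. The longest subunit gene has 2900 nt, while tested protein-coding genes reached 81843 nt. Uqcrq, counted at 1521 nt, lay at -2.81, the lowest of the 16 genes of 1000 nt or more. Only Cox7b, with 243 coding bases, had a shorter coding part among those 16 than Uqcrq, with 249, and in bulk a 405 nt and a 375 nt transcript of it took 33.8% ± 1.63 and 37.6% ± 4.09 of its counts.

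**Figure D2:**
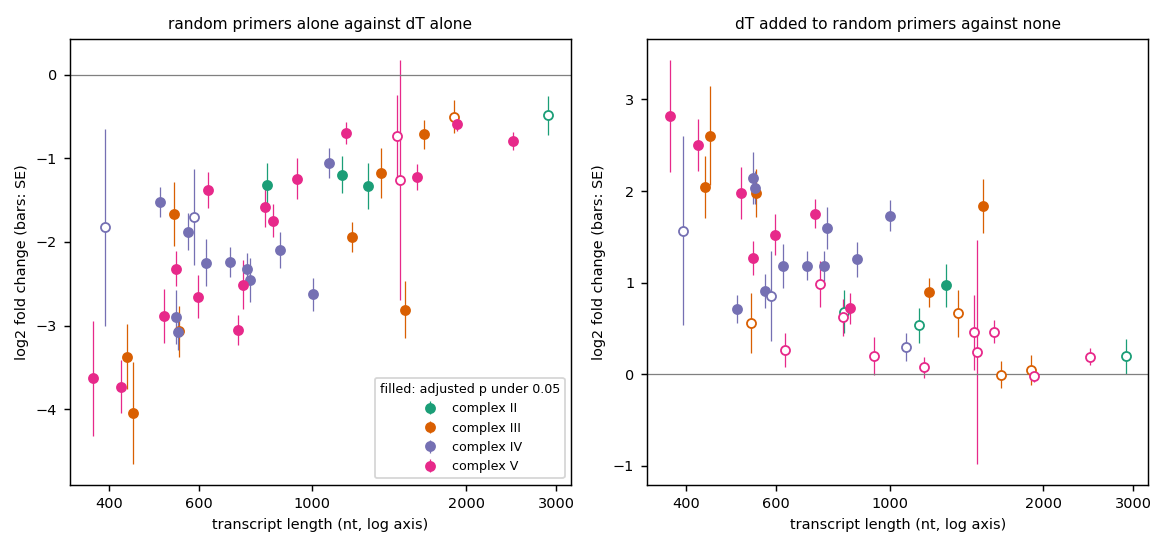
Log2 fold change of each of the 43 tested genes (points, with bars for SE) against transcript length on a log axis, for random primers against dT (left) and for dT added to random primers (right), coloured by complex and filled where the adjusted p was under 0.05. In the left panel the points climb from -4.05 for Uqcr11 toward -0.49 for Sdha, and in the right panel they descend from 2.82 for Atp5k to values near 0 for the longest genes.

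Shares within a library gave the same order without any scaling. Of the summed TPM of the 48 genes, those under 600 nt took 35.8% ± 0.292 in bulk, 34.3% ± 0.892 with dT, 32.8% ± 0.104 with N6dT and 32.3% ± 1.67 for NSRdT, against 21.8% ± 1.04 for NSR and 20.0% ± 2.78 for N6. All 6 libraries with random primers alone were below all 12 others. Genes of 1000 nt or more took 54.6% ± 2.19 with N6, 52.7% ± 1.09 with NSR and 33.7% ± 0.304 in bulk. By complex, complex IV, whose subunits are mostly small, held 37.4% ± 0.0854 of the TPM in bulk, 35.1% ± 1.12 with dT, 28.6% ± 1.18 for NSR and 24.2% ± 1.02 for N6. Complex II held 6.56% ± 1.12 with N6 and 3.88% ± 0.0485 in bulk, and complex V 56% ± 1.70 and 45.3% ± 0.267. Complex III differed little, at 13.2% ± 0.601 with N6 and 13.5% ± 0.163 in bulk.

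**Figure D3:**
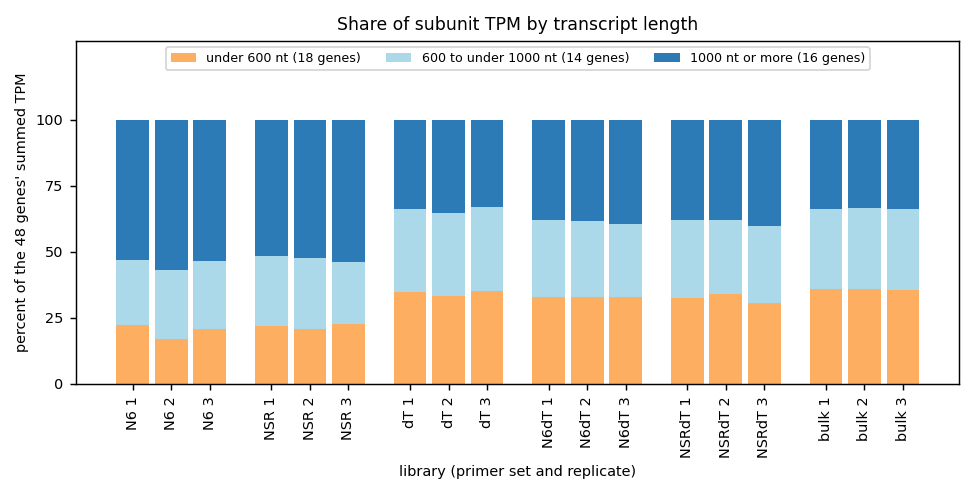
Percent of the summed TPM of the 48 genes held by genes under 600 nt, from 600 to under 1000 nt and of 1000 nt or more, stacked for each of the 18 libraries. The top segment, the longest genes, fills 51.8% or more of each N6 and NSR bar and 40.1% or less of every other bar.

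Adding dT to the random primers was compared with random primers alone. The subunit mRNAs were higher with dT: 23 of 43 rose, 0 fell and 20 were not called by edgeR, while 1.80% of all tested genes were called higher and 0.376% lower. DESeq2 also called 0 lower, and 29 genes had an unadjusted p under 0.05, all of them higher. The median log2 fold change was 0.91, against -0.02 over all tested genes, and 25 genes had all 6 mixed-primer libraries above all 6 others, as did 2.13% of all tested genes, and 0 had them all below, against 0.619%. By library totals 513 of all tested genes were called higher and 30 lower, in place of 282 and 59. By complex 1 of 4 rose in complex II, 5 of 9 in complex III, 10 of 13 in complex IV and 7 of 17 in complex V, with medians of 0.61, 0.89, 1.19 and 0.62. This comparison and that of random primers with dT share the N6 and NSR libraries, so their values are given side by side and not as separate support for each other.

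By median the genes under 600 nt rose most, though single genes departed from that order. Atp5k had 28.7, 25.6 and 23.1 CPM with N6dT and 11.7, 10.5 and 14.8 with NSRdT, above every N6 and NSR library, at 2.82 (SE 0.62, adjusted p 0.019). That call was lost when N6 replicate 1, NSR replicate 1 or NSR replicate 2 was left out (2.63 to 2.87, adjusted p 0.050 to 0.056). Uqcr11 had 18.8, 13 and 13.9 CPM with N6dT and 11, 9.09 and 9.94 with NSRdT, at 2.60 (SE 0.54, adjusted p 0.013). Atp5e had 28.3, 30.6 and 19.5 and 27.4, 27.1 and 21.3 CPM, at 2.50 (SE 0.28, adjusted p 3.0e-05). The smallest p-values were those of Atp5g3 at 1.75 (SE 0.16, adjusted p 2.2e-06), Cox8a at 2.04 (SE 0.18, adjusted p 2.3e-06) and Cox7b, of 1001 nt, at 1.73 (SE 0.17, adjusted p 7.5e-06). Cox4i1 rose by 1.19, Cox5a by 1.18, Uqcrh by 1.98, Uqcr10 by 2.04, Atp5g1 by 1.53 and Cyc1, of 1194 nt, by 0.89. The other called genes were Cox7c at 2.14, Atp5l at 1.98, Uqcrq, of 1521 nt, at 1.84, Cox7a2 at 1.60, Atp5j2 at 1.27, Cox5b at 1.26 and Cox6b1 at 1.18.

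Most long subunits were not called here. Atp5b had 571, 506 and 553 CPM with N6dT and 469, 477 and 485 with NSRdT, which overlapped the libraries without dT, at -0.02 (SE 0.07, adjusted p 1.00). Sdha was at 0.20, Uqcrc2 at 0.04, Atp5c1 at 0.08, Atp5a1 at 0.19 and Cox7a2l at 0.30, none of them called. Also not called were Sdhb at 0.53, Sdhc at 0.68, Uqcrb at 0.56, Uqcrfs1 at 0.66, Atp5d at 0.20 and Atp5h at 0.26. Not all of these are long, since Uqcrb has 535 nt and Atp5h 625 nt, and Cox6c, given below, has 503 nt. Atp5f1, at 0.47, was called without N6 replicate 2 (0.55, adjusted p 0.041) and Atp5j, at 0.62, without NSR replicate 3 (0.85, adjusted p 0.013). The low genes Cox6b2, Cox7a1, Atp5s and Atp5sl were at 0.86, 1.57, 0.24 and 0.46, with none called. Sdhd was the only called gene of complex II, at 0.97 (SE 0.24, adjusted p 0.043), and its call was lost without any 1 of 12 of the 15 libraries, the exceptions being N6 replicate 3, NSR replicate 3 and N6dT replicate 3 (0.82 to 1.02, adjusted p 0.054 to 0.17). That of Atp5o, at 0.72 (SE 0.17, adjusted p 0.034), was lost without any 1 of 10 libraries, which are the others than the 3 dT libraries, N6 replicate 2 and N6dT replicate 3 (0.68 to 0.75, adjusted p 0.062 to 0.11). Cox6c, at 0.71 (SE 0.15, adjusted p 0.017), lost its call without any 1 of 5 libraries (N6 replicate 2, NSR replicate 1, N6dT replicate 2 and NSRdT replicates 1 and 2, at 0.64 to 0.70, adjusted p 0.050 to 0.064). Cox6a1, at 0.91 (SE 0.19, adjusted p 0.013), lost it without N6 replicate 2 (0.85, adjusted p 0.050). Atp5g2, at 0.98 (SE 0.25, adjusted p 0.060), was not called alone but was called without N6 replicate 3 (1.14, adjusted p 0.040) or NSRdT replicate 2 (1.09, adjusted p 0.044). It was at 1.39 (SE 0.15) and called with its copies added. The rank correlation of the change with length was -0.727 over the 43 genes and -0.224 over all tested protein-coding genes, and the median change was 1.98, 1.08 and 0.38 from the shortest to the longest range, against 0.44, 0.44 and -0.01 for protein-coding genes. With average log2 CPM in place of length, the rank correlation over the 43 genes was -0.447.

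Between NSR and N6 primers edgeR called no member of the set with TMM scaling, but 8 by library totals. In the contrast of the 6 libraries with NSR against the 6 with N6, 0 of 43 were called by edgeR, where 0.172% of all tested genes were called, and 7 had an unadjusted p under 0.05. DESeq2 called 1 gene lower, Atp5j2 of the membrane part of complex V, at -0.66 (SE 0.18, adjusted p 0.030), for which edgeR gave -0.65 (SE 0.18, adjusted p 0.43). The 43 values ran from -0.93 to 0.67 with a median of -0.06, against 0.01 over all tested genes. Among the 7 were Atp5e at -0.93 (SE 0.27, adjusted p 0.54), Atp5g3 at 0.52 (SE 0.15, adjusted p 0.55), Cox6c at 0.49 (SE 0.15, adjusted p 0.62) and Cox7a2 at 0.65 (SE 0.22, adjusted p 0.76). Cox6c had 45.1, 32.1 and 44.6 CPM with N6 and 70.9, 71 and 77.4 with NSR, which did not overlap, but 69.4, 97.9 and 87.5 with N6dT and 94.6, 109 and 74.5 with NSRdT, which did. For all 43 genes the 6 libraries of each side overlapped, and 0.434% of all tested genes had no overlap. By library totals the median of all tested genes moved to 0.42 and that of the subunit genes to 0.35, and 526 of all tested genes were called higher and 14 lower, in place of 7 and 20. The 8 subunit genes then called higher were Cox7a2 at 1.06, Atp5g3 at 0.93, Cox6c at 0.89, Cox5b at 0.71, Uqcrc1 at 0.69, Cyc1 at 0.59, Atp5c1 at 0.49 and Atp5a1 at 0.42. Whether dT added the same with NSR as with N6 was tested as an interaction, and 0 of 43 genes were called by edgeR or DESeq2, with 0.0638% of all tested genes called and 4 of the 43 under an unadjusted p of 0.05. Atp5e, at 1.75 (SE 0.54, adjusted p 0.88), and Atp5g2, at 1.66 (SE 0.51, adjusted p 0.85), were among those 4, and the 43 values ran from -1.06 to 2.34, the highest being the low Cox7a1. A p that misses the threshold does not show that the primer sets act alike.

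Each primer set was then compared with bulk on its own 6 libraries. Input, kit, rRNA removal and PCR cycles change together there and cannot be told apart from the primers, and the 5 comparisons share the bulk libraries. With N6, 22 of 43 subunit genes were lower and 1 higher than in bulk, against 3.90% and 3.31% of all tested genes, with a median of -1.03. With NSR, 25 were lower and 0 higher, against 4.65% and 4.01% of all genes, with a median of -1.33. With dT, 22 were higher and 0 lower, against 6.90% and 11.9% of all genes, with a median of 0.64. The medians of the mixed primers were nearest to 0. With N6dT 3 genes were lower and 1 higher (2.09% and 2.70% of all genes), with a median of -0.21, and with NSRdT 5 were lower and 0 higher (2.58% and 2.69%), with a median of -0.28. Where edgeR called 0, DESeq2 called 0 higher with NSR, 1 lower with dT and 3 higher with NSRdT, and 36, 31 and 20 of the 43 genes had an unadjusted p under 0.05 in those comparisons, in either direction. Over all tested genes the medians in the same order of primer sets were -0.03, -0.03, -0.19, -0.03 and -0.04.

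**Figure D4:**
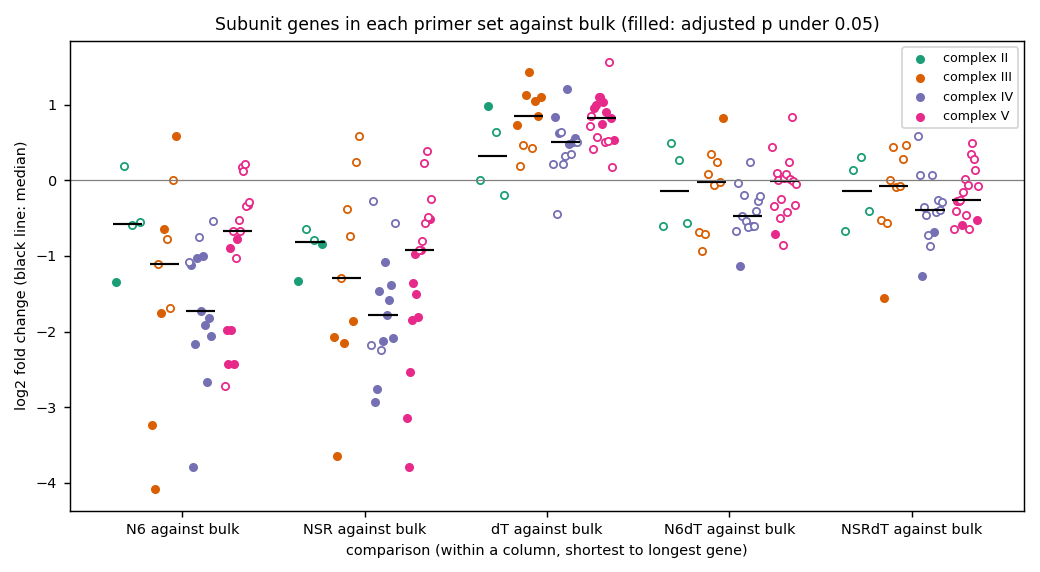
Log2 fold change of the 43 tested genes in each of the 5 primer sets against bulk, split by complex (colour) and drawn from the shortest to the longest gene within each column, with black lines for medians and filled points where the adjusted p was under 0.05. The medians lie below 0 for N6 and NSR and above 0 for dT in all 4 complexes, and between -0.47 and -0.01 for N6dT and NSRdT.

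Against bulk, the lowest genes with N6 were Uqcr11 at -4.08 (SE 0.63, adjusted p 0.011), Cox7c at -3.78 (SE 0.33, adjusted p 7.7e-04) and Uqcr10 at -3.23 (SE 0.33, adjusted p 0.0016). Bulk libraries had 27.8, 31.9 and 29.5 CPM of Uqcr11, 128, 105 and 121 of Cox7c and 30.7, 30.3 and 31.9 of Uqcr10, none of which overlapped N6. The smallest p-values with N6 were those of Atp5g3, at -2.43 (SE 0.16, adjusted p 2.1e-04), and Cox7b, at -2.06 (SE 0.15, adjusted p 3.2e-04). Atp5b had 729.8, 669.8 and 692 CPM in bulk, all above N6, and was called at -0.33 (SE 0.07, adjusted p 0.044). The one gene called higher with N6 was Uqcrc2, with 65.8, 58.1 and 56.1 CPM in bulk, all under the N6 libraries, at 0.59 (SE 0.13, adjusted p 0.043), and by library totals alone it was lower, at -0.77. With NSR the lowest were Atp5e at -3.79 (SE 0.28, adjusted p 3.6e-04), Uqcr11 at -3.64 (SE 0.67, adjusted p 0.021) and Atp5k at -3.15 (SE 0.49, adjusted p 0.011). Without any 1 of the bulk libraries the calls of Uqcr11 (adjusted p 0.060 to 0.066), Atp5b (0.11 to 0.23) and Uqcrc2 (0.16 to 0.24) with N6 were lost, and that of Atp5b also without N6 replicate 3 (0.055). So were those of Uqcr11 (0.095 to 0.10) and Atp5k (0.071 to 0.074) with NSR.

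With dT the genes above bulk came from all 4 complexes: 1 of complex II, 6 of complex III, 6 of complex IV and 9 of complex V. The rank correlation of the change with length was 0.111 over the 43 genes, against 0.731 with N6 and 0.758 with NSR. Over all tested protein-coding genes it was -0.324 with dT, 0.255 with N6 and 0.263 with NSR. With average log2 CPM in place of length, the 43 genes gave 0.167 with dT, 0.332 with N6 and 0.463 with NSR. Cyc1 had 57.2, 53.3 and 53.8 CPM in bulk, all under its dT libraries, at 1.43 (SE 0.11, adjusted p 8.8e-04). Cox5a was at 1.21 (SE 0.10, adjusted p 0.0016) with 74.8, 66.6 and 76.3 CPM in bulk, Uqcrh at 1.13 (SE 0.14, adjusted p 0.0064), Atp5g3 at 1.09 (SE 0.11, adjusted p 0.0030), Uqcrc2 at 1.10 (SE 0.13, adjusted p 0.0058) and Sdhb at 0.98 (SE 0.17, adjusted p 0.010). Atp5c1 was called at 0.90 (SE 0.09, adjusted p 0.0032) and Atp5a1 at 0.53 (SE 0.09, adjusted p 0.011). Sdha at -0.20, Sdhc at -0.00 and Atp5b at 0.18 were not called. Leaving out bulk replicate 1, 2 or 3 left 6, 12 and 4 genes called higher, from 22. The shares of all tested genes called in those runs are not given. A loss particular to the subunit genes therefore cannot be told apart from a general one. Without any 1 of them Sdhb (adjusted p 0.059 to 0.061) and Atp5a1 (0.059 to 0.076) were not called, nor were Uqcrc2 and Uqcrh without bulk replicate 3 (both 0.057).

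With N6dT the 3 lower genes were Cox7c at -1.14 (SE 0.13, adjusted p 0.0042), Cox4i1 at -0.61 (SE 0.11, adjusted p 0.027) and Atp5l, the g subunit of the membrane part of complex V, at -0.71 (SE 0.15, adjusted p 0.043), and the higher one was Uqcrc2 at 0.82 (SE 0.12, adjusted p 0.014), which by library totals alone was lower, at -0.38 (adjusted p 0.044). Bulk had 145, 145 and 148 CPM of Cox4i1, against 84.1, 95.9 and 100.2 with N6dT and 84.2, 90.9 and 94.3 with NSRdT, without overlap. With NSRdT the 5 lower genes were Uqcr11 at -1.55 (SE 0.20, adjusted p 0.0080), Cox7c at -1.26 (SE 0.15, adjusted p 0.0057), Cox4i1 at -0.68 (SE 0.09, adjusted p 0.010), Atp5h at -0.59 (SE 0.11, adjusted p 0.037) and Atp5b at -0.53 (SE 0.07, adjusted p 0.0063). Atp5b had 469, 477 and 485 CPM with NSRdT, below all bulk libraries. Without bulk replicate 1, 2 or 3 in turn, Cox7c was the 1 gene still lower with N6dT, none was higher, and 0, 2 and 0 genes were lower with NSRdT (Cox7c and Atp5b without bulk replicate 2). The lower count with N6 was then 13 each time, and with NSR 9, 12 and 11. By library totals the median of all tested genes lay at -1.39 for N6, -1.03 for NSR, -0.45 for dT, -1.23 for N6dT and -0.75 for NSRdT, and 41, 40, 1, 42 and 34 of the 43 genes were then called lower. Of all tested genes 8570, 5922, 2196, 7958 and 3742 were then lower and 142, 180, 617, 129 and 179 higher. The median of the subunit genes minus that of all genes was -1.0 for N6, -1.30 for NSR, 0.83 for dT, -0.18 for N6dT and -0.24 for NSRdT, the same to 2 decimals by TMM and by library totals. Since scaling shifts all genes of a library alike, this sameness is no check of the difference.

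The remaining values against bulk are given by role, each as 5 log2 fold changes in the order N6, NSR, dT, N6dT and NSRdT. Their median SE was 0.20, 0.22, 0.15, 0.15 and 0.15 in that order, and leaving out bulk replicate 1, 2 or 3 ended 50, 39 and 50 calls over the 5 comparisons, whose values are not repeated gene by gene. In complex II the flavoprotein Sdha was at -0.55, -0.84, -0.20, -0.56 and -0.41 (called for NSR). Of the anchors, Sdhc was at -1.34, -1.33, -0.00, -0.60 and -0.67 (called for N6 and NSR), while Sdhd was at -0.60, -0.79, 0.64, 0.27 and 0.30 (not called). The iron-sulfur protein Sdhb was at 0.18, -0.64, 0.98, 0.50 and 0.13 (called for dT). With N6 only Sdhc of these 4 was called.

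In complex III, Uqcrb, the ubiquinone-binding protein, was at -1.10, -1.30, 0.47, -0.70 and -0.56 (not called). Uqcrq, another small accessory subunit, was at -1.69, -1.86, 1.04, 0.24 and -0.08 (called for NSR and dT), and the hinge protein Uqcrh at -1.76, -2.14, 1.13, 0.08 and 0.00 (called for N6, NSR and dT). Uqcr10 was at -3.23, -2.07, 0.73, -0.68 and -0.52 (called for N6, NSR and dT). These 4 small subunits thus lay below bulk with N6 and NSR and above it with dT, though not each value was called. The large core protein Uqcrc1 was at 0.00, 0.24, 0.85, -0.02 and 0.28 (called for dT), and Uqcrfs1, the Rieske protein, at -0.77, -0.73, 0.43, -0.06 and -0.09 (not called). Cyc1 was at -0.64, -0.38, 1.43, 0.35 and 0.44 (called for N6 and dT).

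In complex IV all 13 tested genes were below bulk in value with N6 and NSR, and 10 and 9 of them were called. Cox6a1, of 571 nt, was at -1.03, -1.47, 0.64, -0.20 and -0.46 (called for N6 and NSR) and Cox6b1, of 618 nt, at -1.73, -2.13, 0.32, -0.61 and -0.86 (called for N6 and NSR). Cox6c was at -1.12, -0.28, 0.83, -0.03 and 0.08 (called for N6 and dT), and Cox8a at -2.16, -2.76, 0.63, -0.47 and -0.35 (called for N6, NSR and dT). Of the 2 subunits numbered 5, Cox5a was at -1.0, -1.08, 1.21, 0.24 and 0.08 (called for N6, NSR and dT) and Cox5b, which holds a zinc ion, at -1.82, -1.39, 0.50, -0.41 and -0.26 (called for N6, NSR and dT). Both were called lower with N6 and NSR and higher with dT. In the 7a family Cox7a2 was at -2.66, -1.58, 0.34, -0.61 and -0.41 (called for N6 and NSR), against -0.54, -0.57, 0.50, -0.21 and -0.29 (not called) for Cox7a2l. Cox7b was at -2.06, -2.09, 0.56, -0.27 and -0.39 (called for N6, NSR and dT). The low Cox6b2 and Cox7a1 had no call: Cox6b2 was at -0.75, -2.24, 0.21, -0.54 and -0.72 (not called) and Cox7a1 at -1.08, -2.18, 0.21, -0.67 and 0.58 (not called), with single SEs up to 1.04.

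In complex V, 7 of 17 genes were called lower with N6, 10 with NSR, and 9 were called higher with dT. Atp5a1 of the head was at -0.28, -0.25, 0.53, -0.05 and -0.07 (called for dT), Atp5c1 at 0.18, 0.22, 0.90, 0.24 and 0.34 (called for dT) and Atp5d, the δ subunit of the central stalk, at -0.67, -0.81, 0.51, -0.41 and -0.64 (not called). Atp5e, of the same stalk but 421 nt long, was at -1.97, -3.79, 0.86, -0.34 and -0.40 (called for N6 and NSR). Of the peripheral stalk, Atp5f1 was at -0.34, -0.49, 0.82, -0.01 and 0.13 (called for dT), Atp5h at -0.66, -0.97, 0.57, -0.49 and -0.59 (called for NSR and NSRdT), Atp5j at -0.78, -0.92, 0.75, 0.03 and -0.45 (called for N6 and dT) and Atp5o, which confers sensitivity to oligomycin, at -0.52, -0.93, 1.03, 0.08 and -0.06 (called for NSR and dT). Of the small membrane subunits, Atp5j2 was at -0.90, -1.85, 0.96, 0.09 and -0.28 (called for N6, NSR and dT), Atp5k at -2.72, -3.15, 0.71, 0.44 and -0.64 (called for NSR) and Atp5l at -2.43, -2.54, 0.41, -0.71 and -0.28 (called for N6, NSR and N6dT). Subunit c came to -1.98, -1.35, 1.00, 0.01 and -0.27 (called for N6, NSR and dT) for Atp5g1 and -2.43, -1.51, 1.09, -0.25 and -0.15 (called for N6, NSR and dT) for Atp5g3. Atp5s, at 0.21, 0.39, 1.56, 0.83 and 0.27 (not called), and Atp5sl, at 0.13, -0.57, 0.51, 0.01 and 0.49 (not called), had no call. The first of these rested on few counts: without NSR replicate 3 its value with NSR was -7.70 and called (adjusted p 0.021).

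The copies changed the account of Cox7c and Atp5g2 against bulk. With dT, Gm10012 had 46.8, 26.6 and 24.6 CPM in the 3 libraries and Gm12338 26.3, 26.2 and 13.2, while in bulk Gm10012 had 0.236, 0.0597 and 0.420 and Gm12338 was at 0 in all 3 libraries. Cox7c alone had 73.8, 85.4 and 97.7 CPM with dT, all below bulk, at -0.45 (SE 0.15, adjusted p 0.092), not called but called without dT replicate 3 (-0.56, adjusted p 0.034). With the copies added the value was 0.26 (adjusted p 0.17), and not called. With N6dT the sum was at -0.36 (adjusted p 0.21), so that the call was lost, and with NSRdT at -0.63 (adjusted p 0.043). With N6 it stayed called, at -3.27. Since the coding bases of Gm12338 equal those of Cox7c, counts within them cannot be told apart by sequence.

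Gm10175 had 52.6, 56.1 and 63.5 CPM in bulk, 46.9, 45.2 and 47.7 with dT and 5.88, 14.3 and 3.01 with N6. With the mixed primers it had 39.7, 38.2 and 29.3 CPM (N6dT) and 15.5, 37.8 and 9.82 (NSRdT). Atp5g2 alone was at -1.03 (SE 0.30, adjusted p 0.093) with N6 and 0.02 (SE 0.26, adjusted p 0.98) with NSRdT, neither called, though without N6 replicate 3 the first was (-1.34, adjusted p 0.033). With its copies it was called in both, at -1.71 and -0.64. With N6dT it moved from -0.86 (SE 0.20, adjusted p 0.056) to a called -0.73, and with dT from a called 1.10 (SE 0.18, adjusted p 0.0097) to 0.45, still called. The call of Atp5g2 alone with dT was lost without any 1 of the bulk libraries (adjusted p 0.052 to 0.062), and with N6dT it was called without N6dT replicate 2 (-1.01, adjusted p 0.033). For Atp5g1, Atp5h, Atp5l, Atp5o, Cox5b and Uqcrb, whose copies hold at least 30% of their 31-base words, the copies summed to at most 2.74 CPM in any group mean.

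**Figure D5:**
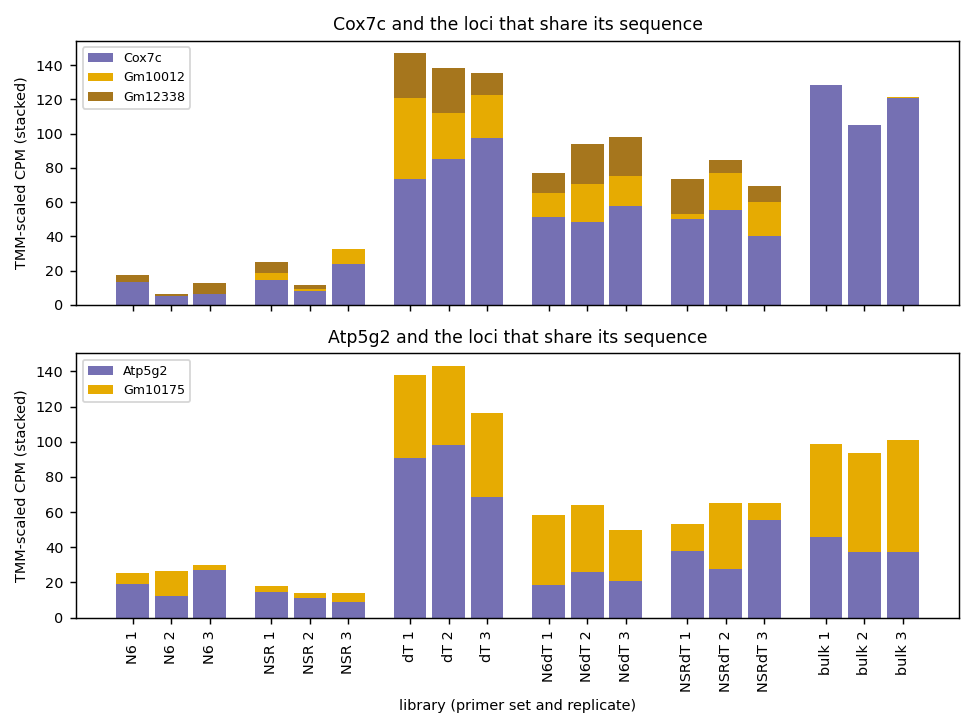
TMM-scaled CPM of Cox7c with Gm10012 and Gm12338 (top) and of Atp5g2 with Gm10175 (bottom), stacked for each of the 18 libraries from 0. Gm10012 and Gm12338 add to Cox7c in the dT, N6dT and NSRdT bars and are almost absent in bulk. By group mean, Gm10175 adds most to the Atp5g2 bars in bulk, less with dT, N6dT and NSRdT, and least with N6 and NSR.

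The split of a gene's counts among its transcripts also differed, as estimates by the authors' quantifier. Of the Cox7c counts, the 315 nt Cox7c-003, annotated as a processed transcript, took 2.50% ± 1.89 in bulk, 35.2% ± 12.2 with N6dT, 39.4% ± 17.5 for NSRdT and 49.9% ± 3.06 for dT, while the 540 nt Cox7c-001 took 44.9% ± 4.33 with dT and 93.5% ± 1.81 in bulk. Atp5j2-001, the longer coding form of Atp5j2 at 955 nt, took 54.7% ± 1.75 in bulk and 21.6% ± 3.13 with dT, and the 540 nt Atp5j2-003 took 40.6% ± 3.09 and 67.7% ± 6.43. Atp5f1-002, annotated as subject to nonsense-mediated decay, took 55.2% ± 0.766 in bulk, 39.8% ± 9.83 with dT and 8.03% ± 7.2 with N6. Uqcrq-004, a 375 nt processed transcript, took 37.6% ± 4.09 in bulk and 1.93% ± 1.53 with dT. Over all 193 entries, protein-coding transcripts held between 88.7% ± 0.963 of the counts with NSRdT and 91.2% ± 0.394 in bulk, and those with a retained intron 3.19% ± 0.258 in bulk, 2.12% ± 0.447 with dT, 4.42% ± 0.450 for N6 and 4.84% ± 1.58 for NSR. With 3 libraries on each side an exact permutation test cannot go below p = 0.10, and none was run on these shares.

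As a share of whole libraries, the 48 genes held 5755 ± 98.7 CPM of the library total in bulk and 7218 ± 329 with dT (mean ± SD, n = 3). They held 2932 ± 12.5 CPM for NSRdT, 2194 ± 86.6 for N6dT, 1635 ± 77.1 for NSR and 1335 ± 38.1 for N6. The ratio to bulk was 1.25 for dT, 0.509 for NSRdT, 0.381 for N6dT, 0.284 for NSR and 0.232 for N6. By complex it was lowest for complex IV with N6, at 0.126, against 0.272, 0.260 and 0.273 for complexes II, III and V. With dT the same ratios were 0.979 for complex II, 1.58 for complex III, 1.2 for complex IV and 1.24 for complex V. Without rRNA and mitochondrial genes in the totals the overall ratios were 1.49 for dT, 0.853 for NSRdT, 0.891 for N6dT, 0.568 for NSR and 0.601 for N6, and 0.326 for complex IV with N6.

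Replicates of these genes lay closest in bulk. The median coefficient of variation over 3 libraries was 0.0468 in bulk (0.0334 without bulk replicate 2), 0.124 with NSRdT, 0.148 with dT, 0.156 with N6dT, 0.188 with N6 and 0.263 with NSR. Over the tested genes under 600 nt it was 0.0674 in bulk, 0.119 for N6dT, 0.155 for dT and 0.163 for NSRdT, against 0.299 for N6 and 0.533 for NSR. Atp5k, the shortest of them, rested on 16, 0 and 28 estimated counts with N6 and 16, 6 and 22 with NSR, against 274, 358 and 714 with dT. For all genes at 10 CPM or more in bulk the median was 0.315 with N6, 0.391 with dT and 0.0763 in bulk.

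Genes around the complexes moved less uniformly. Of 40 assembly factors and partners, 39 were tested, and with random primers against dT 9 fell, 3 rose and 27 were not called, with a median of -0.83. Of all tested genes 7.54% fell and 9.53% rose, so the share of these genes that rose was close to that of all genes. The 9 that fell included the short Usmg5, a small subunit tied to complex V, at -3.66 (SE 0.36, adjusted p 1.6e-06), 2010107E04Rik, another such protein, at -3.05 (SE 0.35, adjusted p 1.2e-05), and Atpif1, the inhibitor of complex V, at -1.41 (SE 0.20, adjusted p 1.0e-04). The 3 that rose were Ttc19, a complex III factor, at 1.87 (SE 0.40, adjusted p 0.0038), and Taco1 and Sdhaf3, which were at 0 in all 3 dT libraries and at up to 8.34 and 4.89 CPM with random primers. Cycs, which encodes the carrier cytochrome c, was at -0.45 (SE 0.43, adjusted p 0.52) and not called. When dT was added, 3 of the 39 rose (Usmg5 at 2.77, the complex III factor Uqcc2, and 2010107E04Rik at 2.10), beside 1.80% of all tested genes. Against bulk, of 40 tested, 5 fell with N6, 5 with NSR and 3 with dT, where 3 others rose. All tested genes fell at 3.90%, 4.65% and 11.9% in these comparisons and rose at 6.90% with dT. No difference from those shares is read from counts as small as 3 of 40.

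The first enzyme of the chain, complex I, can be set beside these values through 37 genes found by the symbols of its nuclear subunits. Those symbols also cover Ndufa4, which despite its name is known as a subunit of complex IV. With random primers against dT 29 of these 37 genes fell and 33 had an unadjusted p under 0.05, with a median of -1.75. With dT added 11 rose, with a median of 0.96. Against bulk 15 fell with N6, 15 fell with NSR and 13 rose with dT, beside the shares of all tested genes given for each comparison above. With N6dT and NSRdT edgeR called 0, with 12 and 11 at an unadjusted p under 0.05, and DESeq2 called 1 higher and 3 lower with N6dT and 1 higher and 6 lower for NSRdT. No test of a difference between complex I and complexes II to V was run.

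The subunits made from mitochondrial DNA did not share 1 direction with random primers against dT, though they did with the mixed primers against bulk. With random primers against dT, mt-Co1 was at 0.94 (SE 0.04, adjusted p 3.8e-11) and mt-Cytb at 0.82 (SE 0.06, adjusted p 6.1e-08), both higher, with mt-Atp8 at 1.16 (SE 0.10, adjusted p 2.7e-07). DESeq2 called 5 of the 6 genes. Lower by edgeR were mt-Co2 at -6.77 (SE 0.74, adjusted p 6.4e-06), mt-Atp6 at -4.45 (SE 0.38, adjusted p 2.8e-07) and mt-Co3 at -2.30 (SE 0.25, adjusted p 7.1e-06). In bulk mt-Co2 had 79, 71.4 and 65.3 CPM against 3067, 2947 and 3150.4 with dT, and mt-Co1 5737, 5016 and 5302 against 4211, 4539.8 and 4619.8. Against bulk all 6 were called higher with N6dT (median 1.97) and with NSRdT (median 1.78), beside 2.70% and 2.69% of all tested genes. With N6 and with NSR 3 were higher and 1 lower, and with dT 4 were higher and 1 lower. The shares of all tested genes for these comparisons are given above. Mitochondrial sequence has near-identical copies in the nuclear genome, so counts of these genes may be split with them and are uncertain as genes.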

How the data were processed

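Estimated counts per transcript were deposited by the authors in 1 table of 115125 transcript entries and 92 ERCC spike-ins for 18 libraries. Each transcript entry names transcript, gene, length and biotype, per the file headers. Some of the values are not whole. The reads were converted with bcl2fastq 2.16.0.10 and the genome build is mm10, per the submitters' processing notes. Aligner, quantifier and strand, not given in the sources used here, bear on the counts, since overlapping or antisense genes and close copies may share counts. The series text speaks of 12 RT-RamDA samples, and the labels give 15, which were used as labelled.

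Counts were summed per gene, rounded to whole numbers and tested with edgeR 4.0.16 (quasi-likelihood, TMM scaling, filterByExpr, Benjamini-Hochberg, two-sided, in R 4.3.3 with limma 3.58.1). All 15 RT-RamDA libraries entered 1 fit for the 4 comparisons among primer sets, and each comparison with bulk used its own 6 libraries. Spike-ins were left out. Descriptions used Python 3.11.15 with numpy 2.4.6, pandas 2.3.3, scipy 1.17.1 and matplotlib 3.10.9. Of the comparisons, only that of random primers with dT by edgeR was tried on simulated counts, drawn for the 15 RT-RamDA libraries. Alternatives were DESeq2 1.42.0, RLE scaling, library totals, no filter, only the groups compared, a replicate block, leaving out each library and, chosen after seeing the data, counts of genes that share at least 30% of the 31-base words added to the subunit gene.

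Well letters, as replicate numbers, did not pair the RT-RamDA libraries: over 30 pairs the correlation of deviations from the group means ran from -0.047 to 0.033 over 7205 genes. The members and the gene lists were chosen with earlier results of these data known, and the complex I list after values were seen. All tested members are named. Other genes named are mitochondrial subunits, Cycs, Atpif1, assembly genes called in a direction with 5 or fewer calls, and Usmg5, 2010107E04Rik, Gm10012, Gm12338 and Gm10175, picked for their values. Lars2 and the loci listed with it are named only as counted with rRNA and mitochondrial genes, and Ndufa4 only as covered by the complex I symbols. Sequences were read from the transcript sequences of GENCODE vM21 (mm10), with coding bounds and positions from its annotation. Some transcript lengths differ between that release and the deposited entries, as for Cyc1 (1520 against 1194 nt).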

Additional observations from a re-analysis of the deposited data

How the results depend on the processing

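Counts of called genes with random primers against dT and with dT added stayed within 1.5 times of those reported under every alternative run, at 36 to 38 lower and 19 to 23 higher when each library was left out in turn, and 38 and 26 with DESeq2. The replicate block left 37 lower and 22 higher, and ended 1 call, that of Sdhd with dT added (0.98). No paired analysis was possible for the comparisons with bulk because bulk libraries carry numbers and RT-RamDA libraries carry well letters. Scaling by library totals gave 8 higher for NSR against N6, and DESeq2 gave 1 lower. Against bulk, library totals gave 0 higher and 41 lower with N6, 40 lower for NSR, 1 lower for dT, 0 higher and 42 lower for N6dT and 34 lower for NSRdT. DESeq2 gave 1 lower for dT, 11 lower for N6dT, and 3 higher and 11 lower for NSRdT. Without a filter, 0 were higher with N6 and with N6dT.

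Leaving out each library in turn gave, against bulk, 13 to 30 lower and 0 to 1 higher with N6, 9 to 35 lower for NSR, 4 to 26 higher and 0 to 1 lower for dT, 1 to 8 lower and 0 to 1 higher for N6dT, and 0 to 9 lower and 0 to 1 higher for NSRdT. The cause was not tested. Neither for these runs nor for DESeq2 is the share of all tested genes called given, so the counts speak only of the subunit genes. Of the genes called by TMM or by library totals, some turned sign under library totals. With N6 these were Sdhb (-1.18), Uqcrc1 (-1.36), Uqcrc2 (-0.77), Atp5c1 (-1.18) and Atp5sl (-1.24), and for NSR Uqcrc1 (-0.76) and Atp5c1 (-0.78). For N6dT they were Sdhb (-0.70), Sdhd (-0.92), Cyc1 (-0.85), Uqcrc2 (-0.38), Uqcrh (-1.12), Uqcrq (-0.96), Cox5a (-0.96), Atp5c1 (-0.96), Atp5g1 (-1.19), Atp5j (-1.17), Atp5j2 (-1.10), Atp5k (-0.76), Atp5o (-1.12) and Atp5sl (-1.18). For NSRdT they were Sdhb (-0.58), Cox5a (-0.64), Cox6c (-0.64), Uqcrh (-0.72) and Atp5f1 (-0.58). Values called by neither scaling turned sign too: 1 for N6, 2 for NSR (Uqcrc2 at -0.41 is 1 of them), 4 for dT, 1 for N6dT, 9 for NSRdT, 21 for NSR against N6, 8 in the interaction and 2 with dT added. Adding copies turned Atp5g2 with NSRdT to -0.64, and leaving out single libraries gave Atp5s for NSR values from -7.70, without NSR replicate 3, to 0.956.

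The rank correlation with length for N6 against bulk was 0.690 with transcript lengths weighted by estimates. The level of all members as a ratio to bulk moved with the denominator, to 0.592, 0.568, 1.49, 0.854 and 0.828 by TMM for N6, NSR, dT, N6dT and NSRdT, and to 0.601, 0.568, 1.49, 0.891 and 0.853 without rRNA and mitochondrial genes. Genes under 600 nt rest on the fewest counts with N6 and NSR, which limits how precisely they are placed there.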
